A study of Mus musculus with 4 samples.

Results

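The Slc25 genes encode the mitochondrial carrier family, and 47 of the 53715 genes in the table carry a name made of Slc25a and a number. All 47 were taken, whatever their level, and all 47 were found by identifier in the GENCODE M21 annotation, each as a protein-coding gene. RNA was measured in blastocysts of C57BL/6 mice. The α-KG library came from embryos given α-ketoglutarate at 0.15 mM from the pronuclear stage, and a separate negative control belongs to it. The 2-HG library came from embryos given 2-hydroxyglutarate at 0.3 mM from the same stage, also with its own negative control. All embryos were zygotes from the oviduct grown in KSOM, an embryo culture medium, and each of the 4 groups is 1 library. The number of embryos in a library and the enantiomer of 2-HG are not given in the sources used here. With 1 library per group there is no replicate check, so no test was run and no difference below has a measured error.

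Most carriers of this family sit in the inner mitochondrial membrane, though some, such as Slc25a17 and Slc25a46, sit elsewhere. Members of the family are built from repeated pairs of membrane-spanning helices, and most exchange 1 solute for another. They bring ADP, phosphate, substrates and cofactors into the matrix and let ATP, citrate and other metabolites out. Among them are the routes by which 2-oxoglutarate (α-KG) itself, malate and citrate cross that membrane. In the preimplantation embryo mitochondria use pyruvate and other substrates of the culture medium, and the carriers link that oxidation to the cytosol.

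Levels are in TPM, a length-scaled share of all transcripts of a library, so that levels of different genes can be set side by side. The trophectoderm markers checked (Cdx2, Gata3, Eomes, Krt8, Krt18, Tfap2c) were at 13.5 to 4339 TPM in all 4 libraries. Of the 4 epiblast markers, 2 reached 5 TPM in all 4 libraries, and Gata6 was the only one of the 4 primitive endoderm markers to do so. The epiblast markers Sox2 and Fgf4 were higher in both libraries of the α-KG pair than in either of the 2-HG pair. Sox2 was at 9.18 TPM with α-KG and 8.91 TPM in its control, and at 1.92 TPM with 2-HG and 2.38 TPM in its control. The 6 cumulus and granulosa markers stayed under 1 TPM, with 0.122 TPM as the highest value. The highest values were 1.70 TPM among the 3 oviduct markers and 2.39 TPM among the 3 blood markers. In embryos of mixed lineages, fewer cells of a type and less RNA per cell cannot be told apart.

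Of the 47 carriers, 28 reached 5 TPM in at least 1 library (59.6%, against 19.4% of all genes), 24 did so in all 4, and 19 stayed below it everywhere. All genes here include small RNAs and pseudogenes, while the 47 carriers are all protein-coding. The shares are thus not of like classes of gene, and no share of protein-coding genes was computed. The 28 spanned a wide range: 6 had a mean of 100 TPM or more over the 4 libraries and 17 lay between 10 and 100 TPM. Among the 47, 13 had a mean under 1 TPM, and Slc25a54 was listed at 0 in all 4 libraries. Slc25a5, Slc25a3 and Slc25a4 were the highest in that order in every library, and the same 6 carriers held the top 6 places in every library. The next in mean level were Slc25a39, Slc25a11 and Slc25a17.

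**Figure D1:**
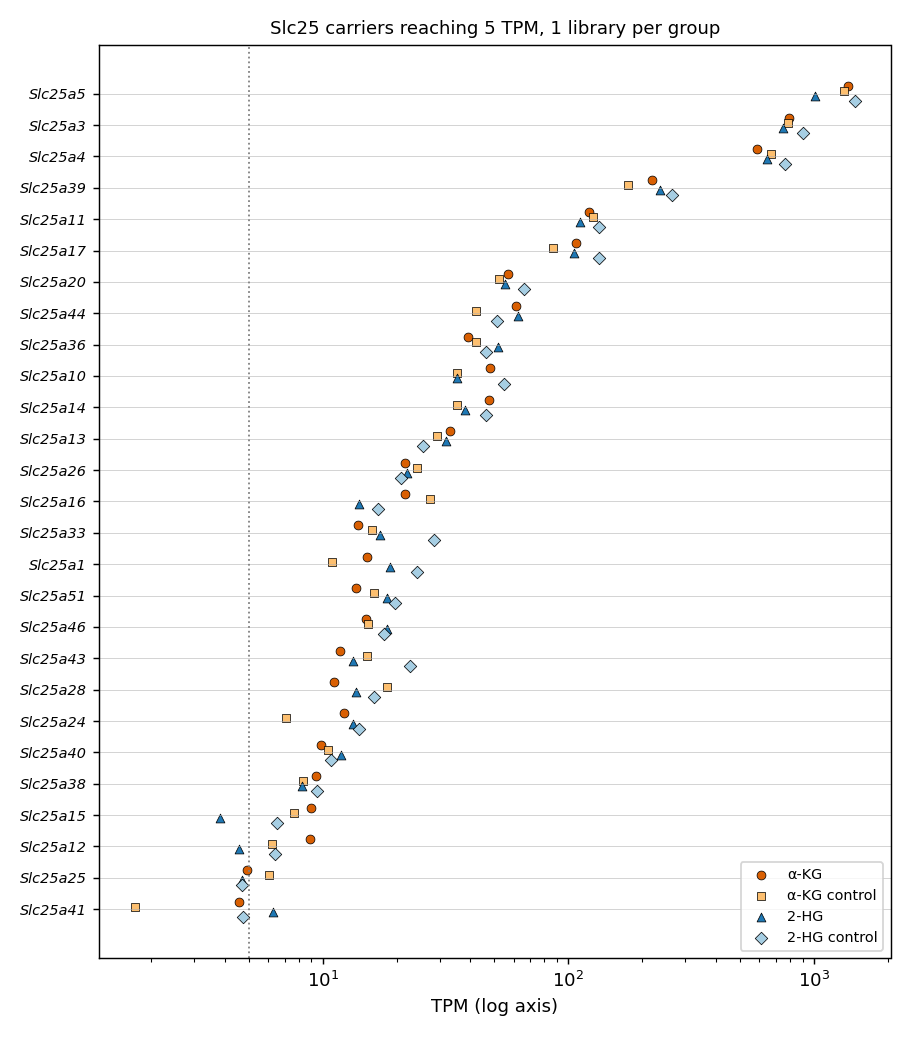
TPM (log axis) of 27 of the 28 Slc25 carriers that reached 5 TPM (dotted line) in at least 1 library, 1 point per library, ordered by mean level. The 4 points of a gene lie close together compared with the range between genes, and Slc25a41 and Slc25a1 are among the most spread.

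Summed over the family, the carriers held 3714 TPM in the α-KG library and 3640 TPM in its control, a ratio of 1.02. They held 3357 TPM in the 2-HG library and 4208 TPM in its control, a ratio of 0.798. The 2-HG library had the lowest sum and its control the highest, with the α-KG pair between them. The lowest place of the 2-HG library rested on Slc25a5. Without that gene the α-KG control was lowest at 2306 TPM, with 2329 TPM in the α-KG library and 2343 TPM in the 2-HG library. The 2-HG control stayed highest at 2742 TPM. The 2-HG control was 1.16 times the α-KG control, and the 2-HG library was 0.922 times the α-KG control. After median-of-ratios scaling the 2-HG ratio was 0.863. Slc25a5, Slc25a3 and Slc25a4 together made up 74.3% of the family sum with α-KG and 76.7% in its control, and 71.8% with 2-HG and 74.4% in its control.

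**Figure D2:**
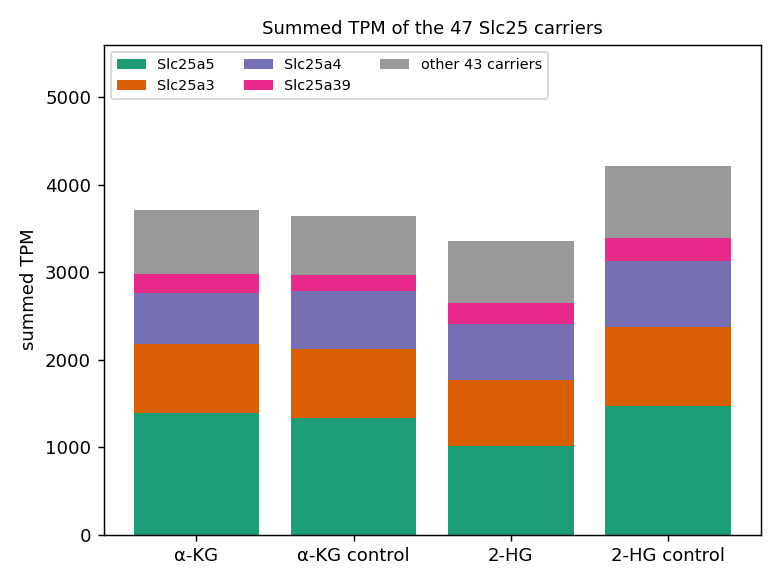
Summed TPM of all 47 carriers in each of the 4 libraries, with the 4 most abundant carriers in colour and the other 43 in grey. The 2-HG control is the tallest bar at 4208 TPM and the 2-HG library the shortest at 3357 TPM.

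The 300-base promoter windows of 4 carriers are shown because they carry the values above: Slc25a5, Slc25a3 and Slc25a4 supply most of the family's RNA, and Slc25a1 showed the largest difference of any carrier measured in the 3 comparisons. Windows come from RefSeq (GRCm38.p6), 5′ to 3′ on the gene's strand. Capitals mark matches on either strand to the core of the NRF1 motif (GCGCANGCG) or to the ETS motif (CCGGAAG), both known from promoters of genes for mitochondrial proteins.

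Slc25a5, chrX:36795347-36795646, plus strand: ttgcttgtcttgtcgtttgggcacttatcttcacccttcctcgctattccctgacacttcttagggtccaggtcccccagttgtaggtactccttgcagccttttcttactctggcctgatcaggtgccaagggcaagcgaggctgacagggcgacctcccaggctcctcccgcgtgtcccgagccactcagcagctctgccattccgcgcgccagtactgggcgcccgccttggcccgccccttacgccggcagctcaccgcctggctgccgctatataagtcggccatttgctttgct

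Slc25a3, chr10:91123918-91124217, minus strand: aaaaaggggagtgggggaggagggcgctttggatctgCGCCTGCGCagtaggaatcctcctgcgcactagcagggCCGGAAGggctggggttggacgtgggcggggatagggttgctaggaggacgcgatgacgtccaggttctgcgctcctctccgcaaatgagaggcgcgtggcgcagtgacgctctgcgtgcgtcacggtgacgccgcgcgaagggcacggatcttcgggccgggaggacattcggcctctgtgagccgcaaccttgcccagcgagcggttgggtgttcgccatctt

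Slc25a4, chr8:46211013-46211312, minus strand: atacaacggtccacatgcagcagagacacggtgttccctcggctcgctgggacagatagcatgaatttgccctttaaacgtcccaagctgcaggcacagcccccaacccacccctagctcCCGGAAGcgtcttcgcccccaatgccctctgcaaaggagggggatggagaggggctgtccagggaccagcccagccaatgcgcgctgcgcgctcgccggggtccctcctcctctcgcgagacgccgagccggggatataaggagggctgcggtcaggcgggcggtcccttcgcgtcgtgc

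Slc25a1, chr16:17928170-17928469, minus strand: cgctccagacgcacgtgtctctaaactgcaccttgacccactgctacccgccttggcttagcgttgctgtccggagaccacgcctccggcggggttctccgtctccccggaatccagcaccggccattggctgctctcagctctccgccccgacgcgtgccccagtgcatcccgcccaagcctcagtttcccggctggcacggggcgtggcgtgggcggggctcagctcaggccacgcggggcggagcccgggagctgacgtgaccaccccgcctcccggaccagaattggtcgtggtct

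Slc25a3 held 1 match to each motif and Slc25a4 held 1 ETS match, while these letters were not in the windows of Slc25a5 and Slc25a1. Promoter windows were found by symbol for 36 of the 47 carriers, 46 windows in all. The ETS letters were in 7 of the 46 (15.2%), against 8.86% of all 32851 windows, and the NRF1 letters in 2 of the 46 (4.35%), against 6.25% of all. Of the 27 windows of carriers that reached 5 TPM, 6 held the ETS letters, and of the 19 windows of carriers that did not, 1 did. The median GC content was 60.7% in the windows of carriers that reached 5 TPM and 56.3% in those of the others, against 52.7% over all windows. A match is only a run of letters, and no binding was measured.

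Differences are given on the log2(TPM + 1) scale, treated minus control, for genes with at least 5 TPM in 1 of the libraries compared. The added 1 makes the difference of a low gene smaller than its ratio. A difference of at least 1 in either direction, about 2-fold, was the size rule. With α-KG, 0 of 27 measured carriers passed it, where 7.31% of 9878 genes did. With 2-HG, 0 of 27 passed, where 8.01% of 9834 genes did. Between the controls, 1 of 27 passed, where 8.86% of 9927 genes did. The share of genes that passed depended on their level. Of the measured carriers, 14 had a mean under 20 TPM, where 13.3% of genes passed with α-KG, 14.1% with 2-HG and 14.4% between the controls. Another 7 lay between 20 and 100 TPM, where 2.99%, 3.76% and 5.13% of genes passed in the same order. The other 6 were at 100 TPM or more, where 1.19%, 1.47% and 2.54% passed.

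**Figure D3:**
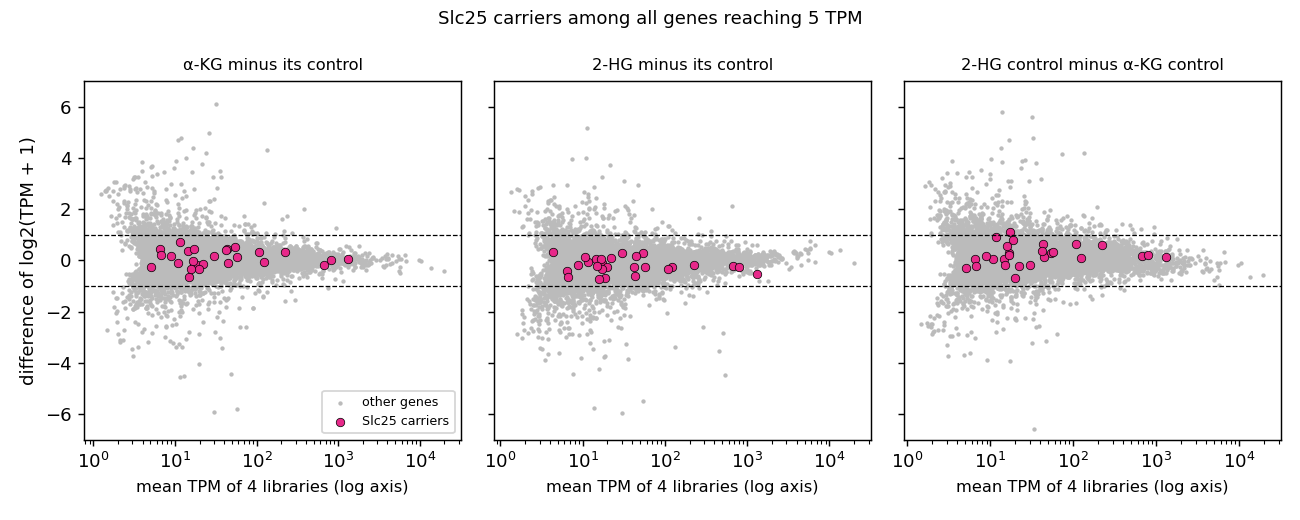
Difference of log2(TPM + 1) against mean TPM (log axis) for all genes measured in each comparison (grey) and the Slc25 carriers (pink), with dashed lines at -1 and 1. All carriers lie between the lines with α-KG and with 2-HG, and Slc25a1 alone lies above 1 between the controls.

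With α-KG the carriers showed no common direction. Of 27 measured, 15 were above and 12 below their control, where 55.8% of all genes were above. The median difference was 0.05, and the median over all genes was also 0.05. With 2-HG, 19 were below and 8 above their control, with a median of -0.23. The median of all genes with 2-HG was -0.12, and 62.4% of all genes were below 0. The medians of the measured lineage markers were also below 0 in that pair. They were -0.34 for 6 trophectoderm markers (4 below 0), -0.29 for 2 measured epiblast markers and -0.47 for 2 measured primitive endoderm markers. Krt8 and Krt18 were higher with 2-HG, at 0.22 and 0.16, and the 6 trophectoderm markers summed to 7164 TPM with 2-HG and 6462 TPM in its control. The part of the markers in the result was not tested. Median-of-ratios scaling moved that median of all genes to -0.01 and the carriers' median to -0.12. Between the controls, 21 of 27 had the higher value in the 2-HG control, where 58.3% of all genes did. The carriers' median was 0.18 against 0.09 over all genes, and 0.105 against 0.007 after median-of-ratios scaling. Marker medians between the controls were 0.11 for 6 trophectoderm, -0.13 for 3 measured epiblast and 0.31 for 2 measured primitive endoderm markers. Sox2 was at -1.55, past the size rule, and the part of the markers here was not tested either. Among the 28 carriers that reached 5 TPM, 14 had their highest value in the 2-HG control (50.0%, against 32.3% of all genes at that level). The 2-HG comparison and the comparison of the controls share the 2-HG control library, so the lower values of the one and the higher values of the other are not separate observations.

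**Figure D4:**
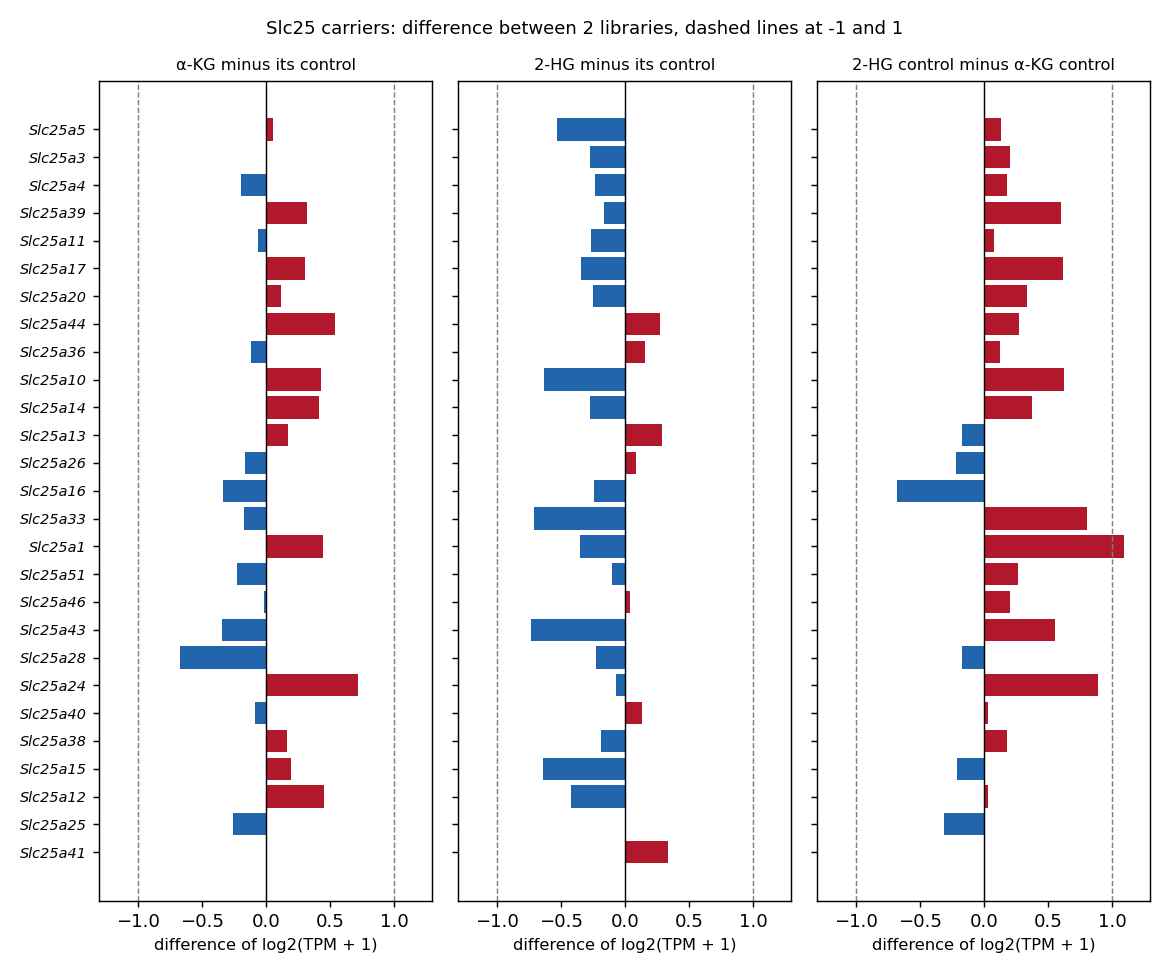
Difference of log2(TPM + 1) for 27 of the 28 carriers, where they reached 5 TPM in the pair compared, ordered by mean level, with dashed lines at -1 and 1 (red above 0, blue below 0, no bar where not measured). Bars point both ways with α-KG, mostly left with 2-HG and mostly right between the controls.

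At a smaller size of 0.5, chosen after the data were seen, 3 of 27 carriers passed with α-KG, where 24.4% of genes did, and 5 of 27 with 2-HG, where 28.7% of genes did. Between the controls 8 of 27 passed, where 30.9% of genes did. The median size of a difference, taken without its sign, was 0.22 for the carriers and 0.26 for all genes with α-KG, 0.26 and 0.30 with 2-HG, and 0.21 and 0.32 between the controls. For the 14 carriers under 20 TPM, the median size was 0.30 with α-KG, 0.23 with 2-HG and 0.24 between the controls, against 0.37, 0.41 and 0.41 for all genes of that level. For the 7 between 20 and 100 TPM it was 0.17, 0.27 and 0.28, against 0.22, 0.26 and 0.28 for all genes. For the 6 at 100 TPM or more it was 0.13, 0.27 and 0.19, against 0.15, 0.19 and 0.24 for all genes.

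Among the carriers of 2-oxoglutarate, dicarboxylates and citrate, which lie nearest to the compounds given, Slc25a11 was the most abundant and the steadiest. Slc25a11 encodes the exchanger of 2-oxoglutarate for malate, part of the malate-aspartate shuttle (ENSMUSG00000014606.14, GRCm38 chromosome 11, 70644196 to 70647479). It was at 122 TPM with α-KG and 127 TPM in its control, and at 111 TPM with 2-HG and 134 TPM in its control. Those values give differences of -0.06 with α-KG and -0.26 with 2-HG, and the highest library was 1.20 times the lowest. The gene shares 189 exon bases with Rnf167 on the opposite strand, which was at 48.4 to 80.2 TPM. Whether reads were counted by strand is not given in the sources used here.

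Slc25a10, the exchanger of malate and succinate for phosphate, was at 47.8 TPM with α-KG and 35.3 TPM in its control, a difference of 0.43. It was at 35.1 TPM with 2-HG and 55.0 TPM in its control, a difference of -0.63. The 2-HG library and the α-KG control lay together at the low end. The 2-HG control was 0.63 above the α-KG control, about as large as the difference with 2-HG.

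Slc25a1, the citrate carrier that supplies cytosolic citrate for fatty acid and sterol synthesis (ENSMUSG00000003528.14, chromosome 16, 17925223 to 17928219), was at 15.2 TPM with α-KG and 10.9 TPM in its control, a difference of 0.45. It was at 18.8 TPM with 2-HG and 24.3 TPM in its control, a difference of -0.35. The difference between the controls was 1.09, the only one past the size rule, so the libraries that had no compound stood farthest apart and both treated libraries lay between them. With a pseudocount of 5 it was 0.88, under the rule.

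Slc25a21, the carrier of 2-oxoadipate and 2-oxoglutarate, stayed under 5 TPM. It was at 2.58 TPM with α-KG and 1.54 TPM in its control, and at 2.18 TPM with 2-HG and 1.04 TPM in its control. Both treated libraries were above both controls, at a level where no difference was read. The 4 genes of this group summed to 187 TPM with α-KG and 174 TPM in its control, and to 168 TPM with 2-HG and 214 TPM in its control.

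The ADP/ATP carriers and the phosphate carrier feed the ATP synthase. Slc25a5, which encodes ANT2, the ADP/ATP carrier of dividing cells (ENSMUSG00000016319.3, chromosome X, 36795651 to 36798807), was the most abundant carrier. It was at 1385 TPM with α-KG and 1334 TPM in its control, a difference of 0.05. It was at 1014 TPM with 2-HG and 1466 TPM in its control, a difference of -0.53. The 2-HG library was the lowest of the 4, and the other 3 lay at 1334 TPM or more. Slc25a5 has processed copies in the genome. A copy under its own name, Slc25a5-ps, is in the table apart from the 47, and reads of near-identical copies make the level uncertain.

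Slc25a4, which encodes ANT1, the form typical of heart and muscle (chromosome 8, 46206797 to 46211284), was at 586 TPM with α-KG and 671 TPM in its control, a difference of -0.20. It was at 648 TPM with 2-HG and 760 TPM in its control, a difference of -0.23. Slc25a5 was thus 2.37 times Slc25a4 with α-KG and 1.99 times in its control, and 1.57 times with 2-HG and 1.93 times in its control. The ratio of the 2 isoforms was lowest with 2-HG and highest with α-KG. Slc25a31, the ADP/ATP carrier of male germ cells, stayed at 1.44 TPM or lower.

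Slc25a3, the phosphate carrier (chromosome 10, 91116574 to 91124059), was at 789 TPM with α-KG and 785 TPM in its control, a difference of 0.01. It was at 749 TPM with 2-HG and 903 TPM in its control, a difference of -0.27. Its 4 libraries lay within 1.21-fold of each other.

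The carriers of ATP-Mg for phosphate set the size of the matrix nucleotide pool. Of them, Slc25a24 was at 12.3 TPM with α-KG and 7.08 TPM in its control, a difference of 0.72 and the largest higher one with α-KG. It was at 13.3 TPM with 2-HG and 14.0 TPM in its control, so the α-KG control was the library that stood apart. Its difference between the controls, 0.89, was larger than that with α-KG. Slc25a41 was at 4.56 TPM with α-KG and 1.72 TPM in its control, under the minimum, and at 6.26 TPM with 2-HG and 4.74 TPM in its control, and here too the α-KG control was lowest. Slc25a25 and Slc25a23 lay between 1.61 and 6.07 TPM.

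Carriers of amino acids were of lower level. Slc25a13 (citrin) and Slc25a12 (aralar) both exchange aspartate for glutamate, the other leg of the malate-aspartate shuttle. Slc25a13 was at 32.9 TPM with α-KG and 29.1 TPM in its control, and at 31.7 TPM with 2-HG and 25.7 TPM in its control, with differences of 0.17 and 0.29. Slc25a12 was at 8.92 TPM with α-KG and 6.23 TPM in its control, and at 4.55 TPM with 2-HG and 6.40 TPM in its control, with differences of 0.46 and -0.42. Citrin was the more abundant in all 4 libraries, at 3.69 times aralar with α-KG and 4.67 times in its control, and 6.97 times with 2-HG and 4.01 times in its control.

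Slc25a22, a glutamate carrier, was at 0.44 TPM with α-KG and 0.14 TPM in its control, and at 0.21 TPM with 2-HG and 0.93 TPM in its control. Slc25a18, its relative, was at 1.17 TPM or lower, so glutamate carriers of this type were near the floor of the table. Slc25a44, which carries branched-chain amino acids, was at 61.5 TPM with α-KG and 42.1 TPM in its control, a difference of 0.54, and at 62.3 TPM with 2-HG and 51.2 TPM in its control, a difference of 0.28. Both treated libraries were above both controls. Slc25a15, the ornithine carrier of the urea cycle, was at 8.93 TPM with α-KG and 7.65 TPM in its control, and at 3.81 TPM with 2-HG and 6.50 TPM in its control, a difference of -0.64. Slc25a38, the glycine carrier that serves haem synthesis, lay between 8.25 and 9.53 TPM, the narrowest spread of the 28 at 1.16-fold. All 5 measured carriers of this group were above their control with α-KG, at differences of 0.17 to 0.54, where 55.8% of all genes were above. With 2-HG 2 were above and 3 below, where 62.4% of all genes were below. The amino acid group was singled out after its values were seen. Of the 7 measured carriers of cofactors and nucleotides, 5 were below their control with α-KG and 2 above.

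Carriers of glutathione and iron were led by Slc25a39, which brings glutathione into the matrix (chromosome 11, 102402985 to 102407946). It was at 219 TPM with α-KG and 175 TPM in its control, a difference of 0.33, and at 237 TPM with 2-HG and 266 TPM in its control, a difference of -0.16. The α-KG control was lowest and the 2-HG control highest, 0.60 apart. Its relative Slc25a40 was at 9.87 to 11.9 TPM, so Slc25a39 exceeded it by 16.6 to 24.6 times. Slc25a28 (mitoferrin 2), which imports iron, was at 11.2 TPM with α-KG and 18.3 TPM in its control, a difference of -0.67 and the largest lower one with α-KG. It was at 13.7 TPM with 2-HG and 16.2 TPM in its control, a difference of -0.23, and both treated libraries were below both controls. Slc25a37 (mitoferrin 1), the form of red cell precursors, stayed at 0.91 TPM or lower.

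Carriers of cofactors and nucleotides were of middle level. Slc25a17, a carrier of coenzyme A and other cofactors in the peroxisome, was the highest of them at 108 TPM with α-KG and 86.7 TPM in its control, and 106 TPM with 2-HG and 134 TPM in its control. Slc25a33 and Slc25a36 carry pyrimidine nucleotides. Slc25a33 was at 14.0 TPM with α-KG and 15.9 TPM in its control, and at 17.1 TPM with 2-HG and 28.5 TPM in its control, a difference of -0.71. The 2-HG control stood apart from the other 3 libraries. Slc25a36 was steadier, between 38.9 and 51.7 TPM. Slc25a26, which imports S-adenosylmethionine, the methyl donor, lay between 20.8 and 24.2 TPM, and Slc25a51, the carrier of NAD, between 13.7 and 19.7 TPM.

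Slc25a16, linked to coenzyme A, was at 21.6 TPM with α-KG and 27.4 TPM in its control, and at 14.0 TPM with 2-HG and 16.8 TPM in its control. It was lower in both libraries of the 2-HG pair than in either of the α-KG pair. Slc25a32, linked to folate and FAD transport, was at 1.05 TPM with α-KG and 0.96 TPM in its control, and at 0.033 TPM with 2-HG and 0.025 TPM in its control. It too divided the pairs and not treated from control, but below the level at which differences were read.

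Of the others, Slc25a20, which brings acylcarnitines in for fatty acid oxidation, was at 56.8 TPM with α-KG and 52.1 TPM in its control, and at 55.4 TPM with 2-HG and 65.9 TPM in its control. Slc25a14, of the uncoupling protein branch, was at 47.6 TPM with α-KG and 35.4 TPM in its control, and at 38.1 TPM with 2-HG and 46.1 TPM in its control. Slc25a43, a carrier with no settled substrate, had the largest lower difference with 2-HG, -0.74, at 13.2 TPM and 22.7 TPM in its control. In the α-KG pair it was at 11.8 TPM with α-KG and 15.2 TPM in its control, so the 2-HG control was again the high library. Both treated libraries were also below both controls. Slc25a46, an outer membrane member that acts in mitochondrial shape, lay between 15.1 and 18.3 TPM. The remaining carriers stayed under 5 TPM, and among them Slc25a30 was at 0.99 TPM with α-KG and 4.40 TPM in its control, and at 1.18 TPM with 2-HG and 1.29 TPM in its control.

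Side by side, 26 carriers were measured in both treated comparisons, at different doses and against different controls. Of these, 3 were above their control with both compounds, Slc25a44 and Slc25a13 among them, and 7 were below it with both. Another 12 were above with α-KG and below with 2-HG, and 4 the reverse. Both treated libraries lay on 1 side of both controls for Slc25a44 and Slc25a28, and also for carriers including Slc25a4, Slc25a11, Slc25a13 and Slc25a43. The share of all genes with that order was not computed, so the order cannot be called a trait of the carriers named. None of the 26 reached the size rule in either comparison. In 19 of the 26 the difference with α-KG was smaller in size than that between the controls, and in 13 of the 26 that with 2-HG was. These counts were not made over all genes, and each treated comparison shares a control library with the comparison of the controls. Over all genes, 55.8% were above their control with α-KG and 62.4% below it with 2-HG. The median size over all genes was 0.26 with α-KG, 0.30 with 2-HG and 0.32 between the controls.

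Genes that work beside the carriers were read from 3 lists. Proteins of the carrier import route, from the Tomm70a receptor through the small Timm chaperones to the Timm22 insertase, were all 13 measured, with medians of 0.10 with α-KG and -0.13 with 2-HG. The other mitochondrial transporters, among them the pyruvate carrier subunits Mpc1 and Mpc2 and the Vdac channels, had 15 of 22 measured, with medians of 0.06 and -0.01. The 15 enzymes that share substrates with the carriers, such as Mdh1, Mdh2, Got1 and Cs, had medians of 0.07 with α-KG and -0.22 with 2-HG, and 14 of the 15 were below their control with 2-HG, where 62.4% of all genes were below and the median of all genes was -0.12. None of these 43 genes passed the size rule in a treated comparison, where 7.31% of all genes passed with α-KG and 8.01% with 2-HG. Many of the 43 were abundant, and of genes at 100 TPM or more only 1.19% passed with α-KG and 1.47% with 2-HG. Of the 43, 1 gene, Mtch1, passed between the controls at 1.77, where 8.86% of all genes passed. Mdh2, mitochondrial malate dehydrogenase, was at 573 TPM with α-KG and 575 TPM in its control, and at 716 TPM with 2-HG and 938 TPM in its control. Between the controls, 13 of the 15 enzymes had the higher value in the 2-HG control, as did 58.3% of all genes. Mtch1, a carrier relative without the Slc25 name, divided the pairs, at 9.72 TPM with α-KG and 9.26 TPM in its control, and at 28.6 TPM with 2-HG and 34.1 TPM in its control.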

How the data were processed

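The deposited TPM values were computed per gene by the authors. The submitters' processing notes name the builds mm10 and GRCm38.p6 and, as tools, StringTie, HISAT2, Trimmomatic, DESeq2 and Picard, without saying how each was used. No read counts were used, so depth is unknown and no counting intervals are given. A second sheet with 10 value columns, some from libraries the labels do not describe, held no Slc25 gene and was not used.

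Members, lists and tests were chosen with earlier results of these data known. Coordinates and exon overlaps, 1-based, come from GENCODE M21, matched by identifier without version. Each difference of log2(TPM + 1) compared 2 libraries, needed 5 TPM or more in either, and had a size rule of 1 (Python 3.11.15, pandas 2.3.3). The code of the size rule was run on a copy of the α-KG control library with known fold changes put on some genes. No noise was added, so that run checked the code and not the differences between libraries. The rule for naming carriers took those past the size rule, the 5 highest by mean, and a fixed set: Slc25a1, Slc25a10, Slc25a11, Slc25a21, Slc25a3, Slc25a4, Slc25a5, Slc25a12, Slc25a13 and Slc25a22. The other carriers, and Mdh2 and Mtch1, were named after their values were seen. The list entries Slc25a52 and Pc matched no name in the table. Protein sequences were not used here, and 1 carrier is counted but its values are not reported here. Alternatives were other pseudocounts, minimums, scaling and controls.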

Additional observations from a re-analysis of the deposited data

How the results depend on the processing

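No paired analysis was possible because each group holds 1 library and no test was run. The count of carriers past the size rule was 0 with α-KG and 0 with 2-HG under every setting tried except those given next. With a minimum of 1 TPM it was 5 of 39 with α-KG (Slc25a2, Slc25a41 and Slc25a48 higher, Slc25a30 and Slc25a42 lower), where 14.7% of all genes passed, and 3 of 37 between the controls, where 15.0% did. Against the control of the other pair it was 1 of 28 with 2-HG, Slc25a41 at 1.42, where 9.14% of all genes passed. With a pseudocount of 5 it was 0 between the controls, since Slc25a1 was then at 0.88. At a size of 0.5, a setting added after the data were seen, it was 3 with α-KG, 5 with 2-HG and 8 between the controls. The median with 2-HG depended on the control and the scaling: it was -0.23 against its own control, -0.12 after median-of-ratios scaling, -0.081 against the mean of both controls, and 0.092 against the α-KG control, so its sign turned. The median with α-KG was -0.19 against the 2-HG control, also of the other sign. Without Slc25a5 the family summed to 2329 TPM with α-KG and 2306 TPM in its control, and to 2343 TPM with 2-HG and 2742 TPM in its control, and the 2-HG ratio was 0.854. Since each library stands alone, differences between libraries and between treatments cannot be told apart.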
